A study of Mus musculus with 6 samples.

Results

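The matrix metalloproteinases (MMPs) and their tissue inhibitors (TIMPs) were followed in primary mouse cardiomyocytes, the contractile cells of the heart, with and without the M90I variant of RIT1. The set held 6 MMP genes (Mmp2, Mmp3, Mmp9, Mmp10, Mmp13 and Mmp14) and 4 TIMP genes (Timp1 to Timp4), chosen by name. They are 10 of the 54532 Ensembl genes in the expression table, matched to symbols in GENCODE M21 (GRCm38, the same build as the mm10 of the submitters). Of the 10, 9 had a mean of at least 0.5 FPKM (fragments scaled to exon length and to library size) and were among the 13794 genes tested. Timp4 was below that level and is given as values.

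Cells came from the hearts of newborn pups in their first days of life, all from a mouse line whose Rit1 locus is engineered to express M90I after Cre recombination. RIT1 is a GTPase related to RAS. On day 3 after isolation the cultures received adenovirus carrying GFP (AdGFP, genotype label Rit1 +/+) or GFP-Cre, which brings in Cre recombinase (AdCre, genotype label Rit1 M90I/+), with 3 samples of each, and RNA was taken on the sixth day of infection. Cells from about a single heart were plated per well after a short step of adhesion to plastic, so other cardiac cells can remain. No sample received Cre without carrying the inducible allele, and the effect of Cre and that of M90I cannot be told apart. FPKM values carry no allele information, so the level of Rit1 is no check of the groups. The numbers 1 to 3 appear in both groups, and samples with the same number are called a pair here.

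MMPs are zinc-dependent proteases that cut collagens, proteoglycans and other proteins around cells. Most are secreted as inactive proenzymes and become active when a propeptide is removed, while MMP14 sits in the plasma membrane and is activated by furin-like enzymes inside the cell. TIMPs block the active site of MMPs, and several MMP genes are textbook targets of the transcription factor AP-1, which acts downstream of ERK signaling. In the heart these enzymes are known for turnover of the matrix between myocytes.

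The promoters of 3 members that lie together on chromosome 9 are shown first, with that of Timp1, because they carry the sequence through which AP-1 is known to act or, for Timp1, lack its exact form. Each is the 120 bases before the RefSeq start (GRCm38.p6, plus strand, 5′ to 3′). Capitals mark TGAGTCA or its reverse complement TGACTCA (AP-1), AGGAAG or its reverse complement CTTCCT (the core bound by ETS factors), and TATAAA on the gene's strand. No marked matches overlap.
Mmp13, chr9:7272394-7272513: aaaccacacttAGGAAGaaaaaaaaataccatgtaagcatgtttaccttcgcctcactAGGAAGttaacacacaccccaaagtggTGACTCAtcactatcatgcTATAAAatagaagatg
Mmp3, chr9:7445702-7445821: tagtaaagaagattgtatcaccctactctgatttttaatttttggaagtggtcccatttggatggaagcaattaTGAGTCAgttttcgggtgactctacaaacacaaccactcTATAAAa
Mmp10, chr9:7502222-7502341: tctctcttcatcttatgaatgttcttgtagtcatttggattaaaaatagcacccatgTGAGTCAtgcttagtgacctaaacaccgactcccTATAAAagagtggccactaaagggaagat
Timp1, chrX:20870046-20870165: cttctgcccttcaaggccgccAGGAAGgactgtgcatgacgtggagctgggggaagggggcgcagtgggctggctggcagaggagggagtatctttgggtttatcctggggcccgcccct

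The AP-1 sequence began 35 bases before the start in Mmp13, 46 bases before it in Mmp3 and 63 bases before it in Mmp10. Over the 250 bases before each start, the AP-1 letters occurred in 4.46% of 32851 RefSeq windows, the ETS letters in 29.5% and TATAAA in 7.59%. Windows were matched for 8 of the 10 members, all but Mmp2 and Mmp9, and the AP-1 letters were found in those of Mmp3, Mmp10 and Mmp13. A match describes the letters only. These 3 genes share the motif, and as described next they differed in level.

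Depth, as reads recovered from FPKM and exon length and rounded, was 25280000 to 26550000 reads in the AdGFP samples and 25980000 to 32430000 reads in the AdCre samples. Markers of the cell types that such cultures can hold were summed in each sample. The 8 cardiomyocyte markers came to between 6259 and 10859.9 FPKM in AdGFP and between 3615 and 5540.4 FPKM in AdCre, and the 9 fibroblast markers to between 2626 and 4696 and between 2305 and 3375 FPKM. The 8 macrophage markers came to between 49.5 and 272 FPKM in AdGFP and between 87.8 and 343 FPKM in AdCre, and the 7 endothelial markers to between 85.2 and 129 and between 125 and 179.9 FPKM. Mural markers lay between 144 and 191 FPKM over all samples and epicardial markers between 107 and 278 FPKM. The 4 mast cell markers came to between 6.47 and 8.71 FPKM in AdGFP and between 17.7 and 27.6 FPKM in AdCre. Most of this was from Mcpt4 (5.44 to 7.22 and 16.5 to 25.4 FPKM). Of the other mast cell markers, Kit overlapped between the groups, Cpa3 was at most 0.268 FPKM and Tpsb2 at most 0.1 FPKM. The 7 neutrophil markers summed to at most 2.25 FPKM, with Ly6g at 0 in every sample. In bulk RNA, fewer cells of a type and less RNA per cell cannot be told apart.

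No member passed the test for a difference between AdCre and AdGFP (limma, adjusted p under 0.05 over all genes tested), where 0.00725% of all genes did, and none passed when the pair was added to the model as a replicate block, where 6.15% of all genes did, 2.64% higher and 3.51% lower in AdCre. Before adjustment, 1 member had a p under 0.05 without the block, against 10.2% of all genes, and 3 with it, against 24.7%. The member with the widest separation was Mmp10, which was lower in every AdCre sample. The TIMPs 1 to 3 and Mmp9 and Mmp14 were higher in AdCre in all 3 pairs, and Mmp3 and Mmp10 were lower in all 3. The direction was thus the same in every pair for 7 of the 9 members tested, where 48.4% of all genes tested did so. The median log2 fold change of the 9 members was 0.12, and that of all genes tested was -0.00. With 3 samples in each group, 0.1 is the lowest p that exact permutation allows.

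**Figure D1:**
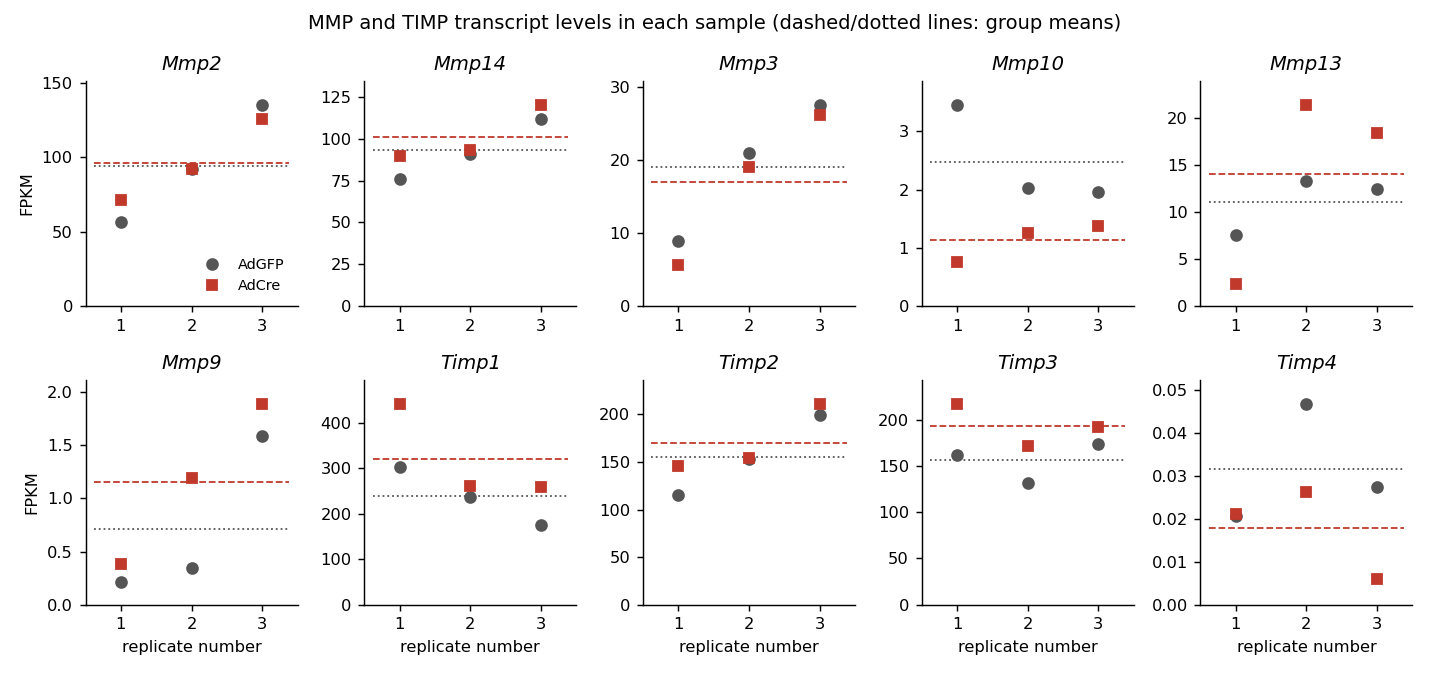
FPKM (linear axes from 0) of the 10 genes in each sample against replicate number, circles for AdGFP and squares for AdCre, with dotted and dashed lines at the AdGFP and AdCre means. Mmp10 is the panel in which all 3 squares lie below all 3 circles, and Mmp2, Mmp3, Mmp13, Mmp14 and Timp2 are lowest in both samples numbered 1.

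The family spanned a wide range of levels, which FPKM allows to be compared between genes because it is scaled to length. Over the 6 samples, Timp1 had the highest mean at 279.9 FPKM (SD 89.8), followed by Timp3 at 175 (SD 28.6) and Timp2 at 163 (SD 35.7). Timp3 was above Timp2 in 3 of 6 samples, so their order is not resolved. Mmp14 at 97 FPKM (SD 16.2) and Mmp2 at 95.5 FPKM (SD 30.4) likewise exchanged places, Mmp14 being the higher in 3 of 6 samples. Mmp3 followed at 18 FPKM (SD 8.95) and Mmp13 at 12.6 FPKM (SD 6.96), with Mmp3 the higher in 5 of 6. Mmp10 at 1.8 FPKM (SD 0.933) was above Mmp9 at 0.937 FPKM (SD 0.717) in 5 of 6 samples. Timp4, the inhibitor best known from adult heart, stood last at 0.0248 FPKM.

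Mmp2, Mmp14 and Timp2 form a known unit, in which MMP14 at the cell surface binds TIMP2 and uses it to capture and activate the proenzyme of MMP2, a gelatinase. Mmp2 (ENSMUSG00000031740, chromosome 8, 92827291 to 92853420) was at 56.3, 92.1 and 135 FPKM in AdGFP 1 to 3 and at 71.5, 91.9 and 126 FPKM in AdCre 1 to 3. The ranges of the groups overlapped almost entirely, and samples with the same number lay close together. The log2 fold change was 0.08 (SE 0.34, 95% interval -0.73 to 0.90, limma adjusted p 0.975). With the replicate block the interval of the same difference narrowed to between -0.17 and 0.34 (adjusted p 0.672).

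Mmp14 (ENSMUSG00000000957, chromosome 14, 54431612 to 54445364) was at 75.9, 91 and 112 FPKM in AdGFP and at 89.4, 93.3 and 120 FPKM in AdCre. Every AdCre sample was above the AdGFP sample of its number, but the ranges overlapped. The log2 fold change was 0.12 (SE 0.19, 95% interval -0.33 to 0.57, limma adjusted p 0.9, and 0.385 with the block). Its 1.58-fold spread from the lowest to the highest sample was the narrowest of the 10 genes.

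Timp2 (ENSMUSG00000017466, chromosome 11, minus strand, 118301069 to 118355740) was at 115, 153 and 199 FPKM in AdGFP and at 146, 154 and 211 FPKM in AdCre. Pair 1 differed by 0.34 on the log2 scale and pair 2 by 0.01. The log2 fold change was 0.15 (SE 0.24, 95% interval -0.42 to 0.72, limma adjusted p 0.906, and 0.381 with the block). All 3 genes of this unit were thus lowest in both samples numbered 1 and highest in both samples numbered 3. The ratio of Mmp2 to Mmp14 was 0.742, 1.01 and 1.2 in AdGFP 1 to 3 and 0.8, 0.985 and 1.05 in AdCre 1 to 3.

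Mmp3 and Mmp10 encode stromelysins 1 and 2, which cut proteoglycans, fibronectin and other MMP proenzymes. Mmp3 (ENSMUSG00000043613, chromosome 9, 7445822 to 7455975) was at 8.9, 20.9 and 27.5 FPKM in AdGFP and at 5.69, 19 and 26.2 FPKM in AdCre. Each AdCre sample lay below the AdGFP sample of its number, by 0.64, 0.14 and 0.07 on the log2 scale in pairs 1 to 3, while the spread within a group was far larger. The log2 fold change was -0.28 (SE 0.63, 95% interval -1.77 to 1.21, limma adjusted p 0.938, and 0.247 with the block).

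Mmp10 (ENSMUSG00000047562, chromosome 9, 7502352 to 7510240) was at 3.45, 2.02 and 1.96 FPKM in AdGFP and at 0.762, 1.26 and 1.38 FPKM in AdCre. These values rest on 147, 88 and 83 reads in AdGFP and on 42, 56 and 66 reads in AdCre. All 3 AdCre samples lay below all 3 AdGFP samples, and the groups failed to overlap in this way, in either direction, for 15.4% of all genes tested (7.36% with AdCre higher and 8.02% with AdCre lower). AdGFP averaged 2.47 ± 0.849 FPKM against 1.13 ± 0.329 FPKM for AdCre (SD, n = 3 each). This was a log2 fold change of -1.05 (SE 0.31, 95% interval -1.78 to -0.32), with a limma adjusted p of 0.338 without the block and 0.12 with it. By exact permutation the two-sided p was 0.1, which is as low as this design goes.

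The size of the Mmp10 difference rested most on pair 1. The pair differences were -2.04, -0.64 and -0.47 on the log2 scale, and the estimate moved to -0.79 when AdGFP 1 was left out, to -0.81 when AdCre 1 was left out and to -0.55 in the blocked fit of pairs 2 and 3. Of the 50-base words in Mmp10 transcripts, 8.37% also occur in Mmp3, a near relative in the same cluster, and 8.39% of those of Mmp3 occur in another gene, nearly all of them in Mmp10. How reads from shared sequence were counted is not given in the sources used here, and Mmp3 was the more abundant in every sample. The ratio of Mmp10 to Mmp3 was 0.388 in AdGFP 1, 0.134 in AdCre 1 and between 0.0528 and 0.0966 in the other 4 samples.

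The tested protein-coding genes whose profile over the 6 samples was most like that of Mmp10 were sought by the root mean square difference of mean-centred log2 values. They were Stbd1 (0.188), the beta-3 adrenergic receptor gene Adrb3 (0.219), Prkd1 (0.223), Dhrs9 (0.228) and Mybpc2, a myosin-binding protein of striated muscle (0.229). Stbd1, which encodes a glycogen-binding protein, was at 208, 146 and 113 FPKM in AdGFP and at 61.4, 72.3 and 74.6 FPKM in AdCre. Prkd1 encodes protein kinase D1. A lower level in AdCre follows from the choice of these genes by their likeness to Mmp10 and was not tested.

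Mmp13 encodes the main interstitial collagenase of rodents, which makes the first cut in fibrillar collagen. The gene (ENSMUSG00000050578, chromosome 9, 7272514 to 7283331) was at 7.55, 13.3 and 12.5 FPKM in AdGFP and at 2.35, 21.4 and 18.4 FPKM in AdCre. AdCre 1 was the lowest sample of all and AdCre 2 and 3 the highest, so AdCre lay both below and above AdGFP. The pair differences were -1.64, 0.68 and 0.55 on the log2 scale, and the log2 fold change was -0.14 (SE 0.80, 95% interval -2.02 to 1.74, limma adjusted p 0.983, and 0.886 with the block). With the block and without pair 1, which leaves 2 pairs, the log2 fold change was 0.62. There Mmp13 passed (limma adjusted p 0.0243), in a fit where 772 of the 13794 genes tested passed. Mmp13 passed in none of the other alternatives, over which its adjusted p reached 0.999.

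Mmp9 encodes gelatinase B, known from macrophages and neutrophils. The gene (ENSMUSG00000017737, chromosome 2, 164940780 to 164955850) was at 0.217, 0.345 and 1.59 FPKM in AdGFP and at 0.388, 1.19 and 1.89 FPKM in AdCre. The counts behind these were 19, 31 and 139 reads in AdGFP and 44, 109 and 185 reads in AdCre. AdCre was higher in every pair, but AdGFP 3 lay above AdCre 1 and 2. The log2 fold change was 0.80 (SE 0.76, 95% interval -1.0 to 2.59, limma adjusted p 0.808, and 0.206 with the block). It was 0.31 without AdGFP 1, 0.36 without AdCre 3 and 1.52 without AdGFP 3.

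**Figure D2:**
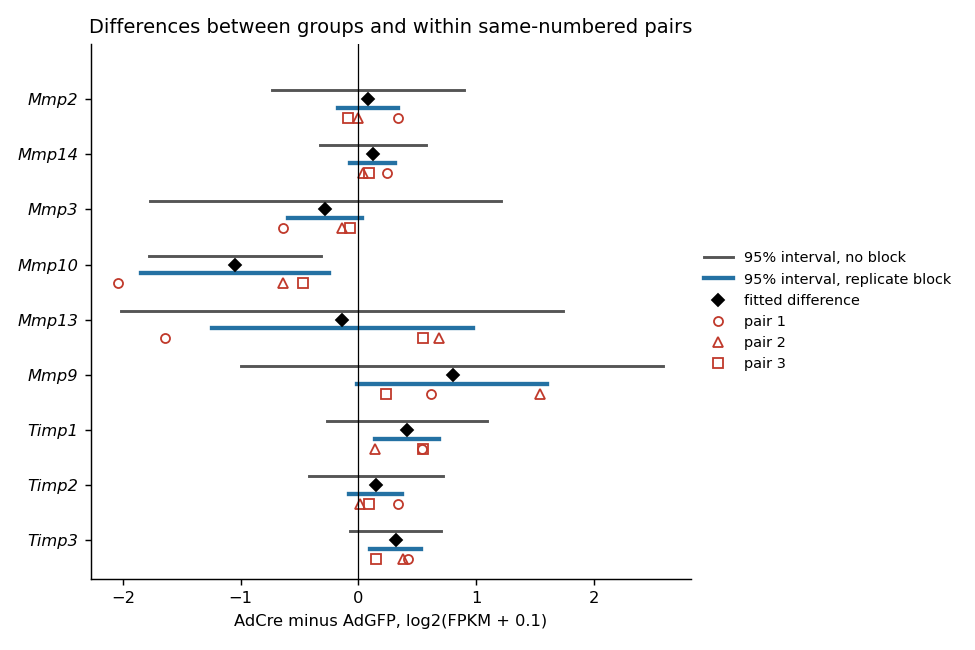
Difference between AdCre and AdGFP in log2(FPKM + 0.1) for the 9 tested genes, with the fitted value (diamond), its 95% interval without the block (upper, thin) and with it (lower, thick), and the 3 pair differences (open symbols). The interval of Mmp10 lies below 0 in both fits, those of Timp1 and Timp3 lie above 0 with the block only, and pair 1 of Mmp13 lies on the opposite side from pairs 2 and 3.

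Timp1 is a secreted inhibitor and a known growth factor-inducible gene. It (ENSMUSG00000001131, chromosome X, 20870166 to 20874735) was at 304, 237 and 176 FPKM in AdGFP and at 442, 261 and 258 FPKM in AdCre. The AdCre sample was the higher in each pair, by 0.54, 0.14 and 0.55 on the log2 scale, and AdGFP 1 lay above AdCre 2 and 3. AdGFP averaged 239 ± 63.8 FPKM against 321 ± 106 FPKM for AdCre (SD, n = 3 each). Timp1 thus had a log2 fold change of 0.41 (SE 0.29, 95% interval -0.27 to 1.09, limma adjusted p 0.708), and with the block the standard error was 0.11 and the adjusted p 0.0861. Without AdCre 1 it was 0.15, and without AdGFP 3 it was 0.21. Timp1 ran against most of the family in being highest, in both groups, in the sample numbered 1.

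Timp3, which binds to the matrix and also blocks ADAM17, was at 162, 132 and 174 FPKM in AdGFP and at 217, 171 and 192 FPKM in AdCre. The gene (ENSMUSG00000020044) lies on chromosome 10 from 86300372 to 86349506, inside Syn3. AdGFP 3, at 174, lay just above AdCre 2, at 171, and this was the only overlap between the groups. AdGFP averaged 156 ± 21.4 FPKM against 194 ± 22.8 FPKM for AdCre (SD, n = 3 each). For Timp3 the log2 fold change came to 0.32 (SE 0.16, 95% interval -0.07 to 0.70, limma adjusted p 0.586, and 0.0934 with the block). Of the exon bases of Timp3, 21.3% lie opposite exons of Syn3, and without knowledge of strand in counting such reads cannot be told apart.

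Timp4 (ENSMUSG00000030317, chromosome 6, minus strand, 115241892 to 115252205) had 3, 7 and 4 reads in AdGFP and 4, 4 and 1 reads in AdCre. These stood for 0.0206, 0.0468 and 0.0275 FPKM and for 0.0212, 0.0263 and 0.00612 FPKM. At this depth no difference was detectable, and no fold is given. Timp1 and Timp4, like Timp3, lie within a synapsin gene on the opposite strand, Timp1 in Syn1 and Timp4 in Syn2.

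Summed transcripts of the 4 TIMP genes exceeded those of the 6 MMP genes in every sample. The 4 TIMP genes summed to between 523 and 581 FPKM in AdGFP and between 587 and 805 FPKM in AdCre, while the 6 MMP genes summed to between 152 and 291 FPKM in AdGFP and between 170.1 and 294 FPKM in AdCre. The ratio of the TIMP sum to the MMP sum was 3.81, 2.38 and 1.89 in AdGFP 1 to 3 and 4.73, 2.57 and 2.25 in AdCre 1 to 3, higher in AdCre in every pair with overlap of the groups. Mmp2 and Mmp14 together made up between 81.2% and 94.6% of the sum of these 6 MMP genes. The 17 other MMP genes of the mouse are in neither this sum nor the ratio. They came to between 71.6 and 110.0 FPKM in AdGFP and between 50.7 and 96.3 FPKM in AdCre. Timp1 made up 52.3% and 54.9% of the TIMP sum in the samples numbered 1 and 32.1% and 39% in those numbered 3.

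**Figure D3:**
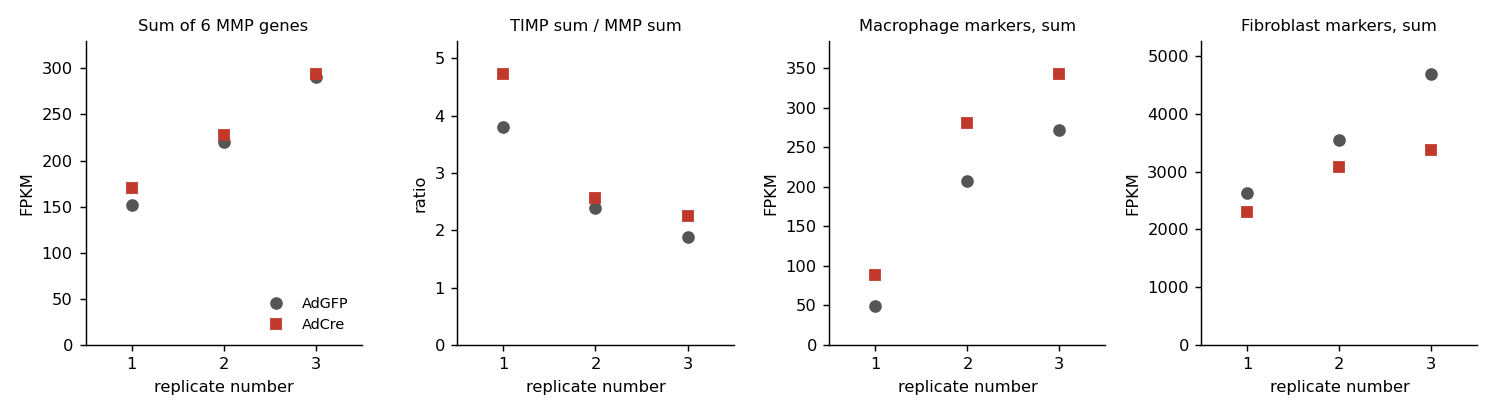
Summed FPKM of the 6 MMP genes, ratio of the TIMP sum to the MMP sum, and summed FPKM of the macrophage and fibroblast markers, in each sample against replicate number (circles AdGFP, squares AdCre, axes from 0). The MMP sum and both marker sums are lowest in the samples numbered 1, and the ratio is highest there, at 3.81 and 4.73.

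The spread of each member was divided between the group and the replicate number. In a split of the sum of squares over the 6 samples on the log2 scale, the replicate number took 94.5% for Mmp2, 94.9% for Mmp3, 88.6% for Mmp14, 87.7% for Timp2 and 78% for Mmp9. Its share exceeded that of the group for 7 of 9 members, close to the 73.7% of all genes tested for which it did so, and the number has 2 degrees of freedom against 1 for the group. The exceptions were Mmp10, with 68.8% for the group and 0.107% for the number, and Timp3, with 51.3% and 41.1%. The median share of the number was 78% over the 9 members and 59.2% over all genes tested.

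**Figure D4:**
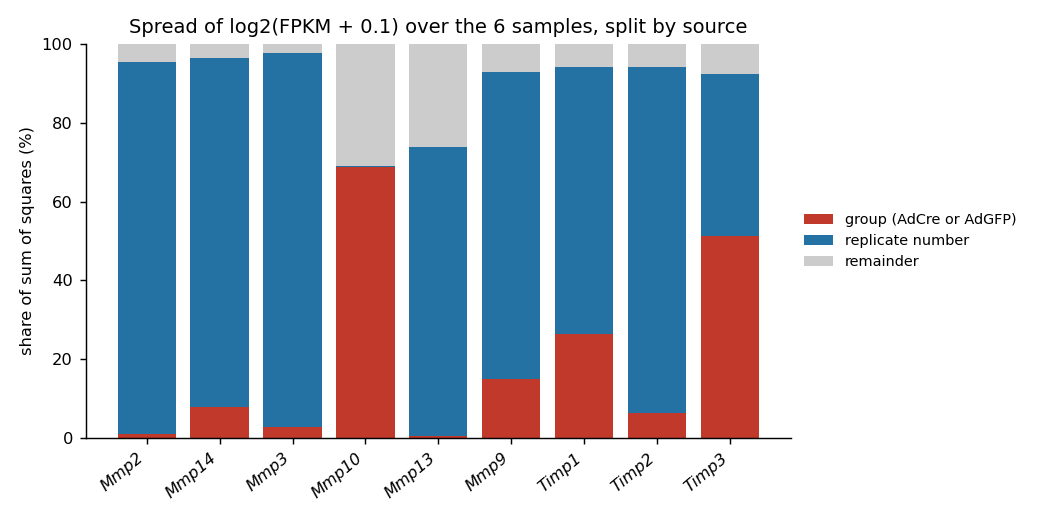
Share of the sum of squares of log2(FPKM + 0.1) over the 6 samples taken by group, by replicate number and by the remainder, for the 9 tested genes. The bar of Mmp10 is mostly group (68.8%), and those of Mmp2 and Mmp3 are mostly replicate number (94.5% and 94.9%).

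Both samples numbered 1 lay below the other 4 for 5 members, namely Mmp2, Mmp3, Mmp13, Mmp14 and Timp2, out of 9 tested, against 17.9% of all genes tested. The mean of the other 4 samples over that of the samples numbered 1 was 3.32 for Mmp13, 3.21 for Mmp3, 1.74 for Mmp2, 1.37 for Timp2 and 1.26 for Mmp14. The macrophage markers moved with this split, at 49.5 and 87.8 FPKM in the samples numbered 1 and at 207, 272, 280.4 and 343 FPKM in the others. So did the fibroblast markers, at 2626 and 2305 FPKM against 3557, 4696, 3082 and 3375 FPKM. The part of either cell type in the levels of these genes was not tested.

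Mmp3, Mmp10 and Mmp13 belong to a cluster of 10 MMP genes that spans 427 kb of chromosome 9. In order along the chromosome these are Mmp13, Mmp12, Mmp1b, Mmp3, Mmp1a, Mmp10, Mmp8, Mmp27, Mmp20 and Mmp7. Levels differed sharply within the cluster, with Mmp1a at 0 in every sample and Mmp1b at no more than 0.149 FPKM, on either side of Mmp3 at up to 27.5 FPKM. Mmp12 reached 35.1 FPKM, and Mmp20 was at 0 in every sample. The AP-1 letters occurred before a RefSeq start of 7 of the 10 cluster genes, Mmp1a included, and before none of the 8 MMP genes outside the cluster that had a window.

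Mmp12 and Mmp8 of this cluster were, like Mmp3 and Mmp13, lowest in both samples numbered 1, but unlike them were higher in AdCre in all 3 pairs. Mmp12, the elastase of macrophages, was at 4.54, 24.6 and 27.9 FPKM in AdGFP and at 7.96, 35.1 and 32.7 FPKM in AdCre. Mmp8, a collagenase best known from neutrophils, was at 0.2, 1.63 and 1.92 FPKM and at 0.309, 2.27 and 2.37 FPKM. Neither passed (limma adjusted p 0.904 and 0.944, and 0.0676 and 0.256 with the block). Of the 5 cluster genes tested, 4 had both samples numbered 1 below the rest, and Mmp10 did not.

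**Figure D5:**
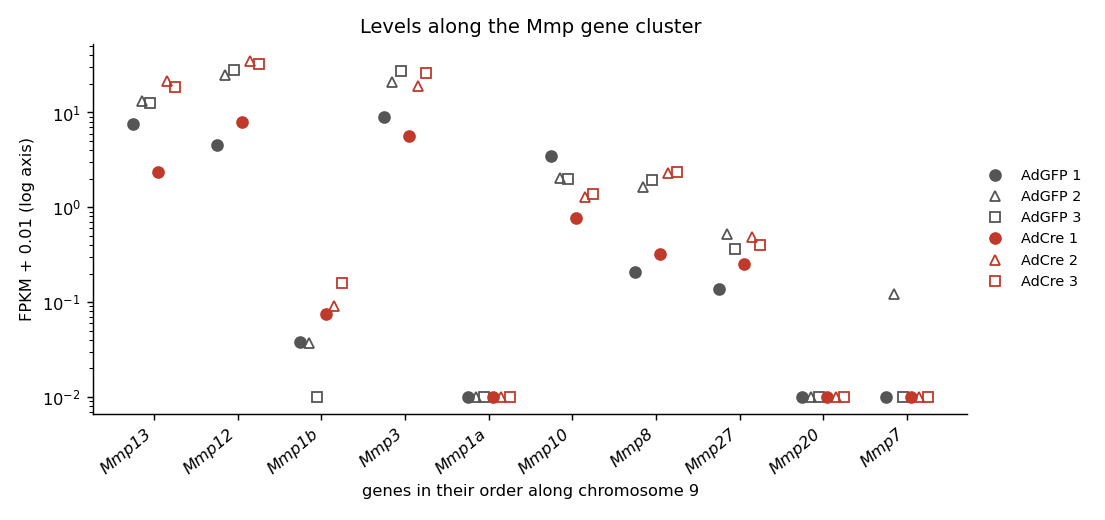
Levels (FPKM + 0.01, log axis) of the 10 MMP genes of the chromosome 9 cluster in chromosomal order, grey for AdGFP and red for AdCre, with filled circles for the samples numbered 1. The filled circles lie lowest for Mmp13, Mmp12, Mmp3, Mmp8 and Mmp27, and Mmp1a and Mmp20 are at 0, drawn at 0.01.

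Among the 17 other MMP genes of the mouse, 9 were tested and none passed without the block. With it 2 passed, both lower in AdCre, where 3.51% of all genes tested were called lower. Mmp15, a membrane-bound relative of Mmp14, was at 27.3, 30.5 and 22 FPKM in AdGFP and at 11.1, 15.2 and 10.2 FPKM in AdCre, a log2 fold change of -1.13 (SE 0.19, limma adjusted p 0.158, and 0.00969 with the block). Mmp11, stromelysin 3, was at 10.5, 12.8 and 9.45 FPKM and at 6, 7.53 and 6.68 FPKM, a log2 fold change of -0.68 (SE 0.16, adjusted p 0.259, and 0.0269 with the block). In both genes every AdCre sample lay below every AdGFP sample, as in Mmp10 and in 8.02% of all genes tested. The direction of the other 7 tested was mixed, and the median of the 9 was -0.14.

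The cardiomyocyte markers were also lower in AdCre, with 8 of 8 below 0 and a median log2 fold change of -0.77. Their summed levels did not overlap between the groups. By gene, 4 of the 8 were lower in AdCre without overlap, against 8.02% of all genes tested, and the groups overlapped for the others. The part of the cardiomyocyte markers in the lower levels of Mmp10, Mmp11 and Mmp15 was not tested. The macrophage list had 7 of 7 tested genes above 0 with a median of 0.51, the endothelial list 7 of 7 above 0 with a median of 0.35, the fibroblast list 8 of 9 below 0 with a median of -0.39, and the epicardial list 6 of 7 below 0 with a median of -0.45. With the block, 5 cardiomyocyte, 3 fibroblast and 2 epicardial genes passed as lower in AdCre, and 2 macrophage, 3 endothelial and 1 mast cell gene as higher, where 3.51% of all genes tested were called lower and 2.64% higher. Of the cardiomyocyte, macrophage and fibroblast lists, 0 genes passed without the block (limma, with 5 cardiomyocyte, 0 macrophage and 0 fibroblast genes at an unadjusted p under 0.05).

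Genes that act on or with MMPs were described from lists. Over 6 lists with 97 genes, 83 were tested, and 0 passed without the block (limma, and 0 with voom on recovered reads), while 15 passed with it, 11 higher and 4 lower, or 18.1% against 6.15% of all genes. Against 2.64% of all genes tested, 5 of the 16 regulators tested rose with the block. They included Plau, encoding the urokinase that generates plasmin (log2 fold change 0.53, limma adjusted p 0.0269), its receptor Plaur (0.68, 0.026), Cd44 (0.64, 0.0313), which can hold MMP9 at the cell surface, and Itgb3 (0.57, 0.0459). Plau was at 26.3, 33 and 37 FPKM in AdGFP and at 38.3, 50.7 and 49.9 FPKM in AdCre, without overlap.

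Of the 17 ADAM and ADAMTS proteases tested, 2 rose with the block, namely Adam12 (log2 fold change 0.46, limma adjusted p 0.0319) and Adam8 (0.41, 0.0498), where 2.64% of all genes tested rose. Both calls were lost when any pair was left out. Of the 20 matrix substrates, Tnc, encoding tenascin-C (0.63, 0.0239), and Nid1, encoding nidogen of the basement membrane (0.46, 0.0351), rose, and the collagen-binding proteoglycan Dcn (-0.79, 0.023) and Col3a1 (-0.47, 0.0484) fell, all with the block only, where 2.64% of all genes tested rose and 3.51% fell. Dcn and Col3a1 are also on the fibroblast list and are 2 of its 3 genes called with the block. Col3a1 lost its call after rescaling to TPM (adjusted p 0.0685). The median over all 20 was 0.02.

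Of the 15 transcription factors known to act on MMP promoters, 2 rose with the block, against 2.64% of all genes tested. These were the ETS factor Etv4 (log2 fold change 1.32, limma adjusted p 0.0145) and the AP-1 subunit Fosl1 (1.47, 0.0346). Fosl1 was at 13.7, 3.86 and 2.57 FPKM in AdGFP and at 24.1, 10.3 and 12.2 FPKM in AdCre, highest in both samples numbered 1, as Timp1 was. Of the exon bases of Fosl1, 57.2% lie opposite exons of Ccdc85b, and reads of these genes cannot be told apart there without strand. Of 10 cytokines and receptors that induce MMPs, 6 were tested and 0 passed in either fit (limma, with 1 at an unadjusted p under 0.05 without the block, and 0 with voom), and all 6 were above 0. The smallest p-values were those of Tgfb1 (log2 fold change 0.32, adjusted p 0.455, and 0.133 with the block) and Il6 (0.67, 0.641 and 0.0977).

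These blocked calls depended on the settings and on the pairs. Of the 15 genes, 0 passed with the block when no trend was fitted or when low values were not filtered out (limma). Likewise 0 passed with the block when pair 3 was left out, and without pair 2 there were 2 calls, Mmp15 and Etv4. Without pair 1, 9 of the 15 passed again, and Itgb3, Nid1, Col3a1, Adam12 and Adam8 were among the 6 lost. Among all genes called with the block, 42.9% were higher in AdCre as deposited and 61.5% after rescaling to TPM (3.9% of all genes tested higher and 2.44% lower), a rescaling under which no member changed direction.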

How the data were processed

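RNA-seq of poly-A RNA was analysed from 6 samples, 3 AdGFP and 3 AdCre, grouped by their labels. The authors deposited FPKM values, with 1 column per sample. The submitters' processing notes name fastp, STAR 2.5, HTSeq 0.6.1 and mm10. Annotation, strand and the FPKM denominator are not given in the sources used here. FPKM times exon length (GENCODE M21) came out as whole reads (within 0.01) in all 6 samples for 98.5% of 14784 genes with fewer than 50 reads, which gave the reads quoted. The denominators were 0.931 to 1.03 times those read sums, for a reason not given in the sources used here.

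Values were tested as log2(FPKM + 0.1) with limma 3.58.1 (R 4.3.3; lmFit, and eBayes with a trend) for the 13794 genes averaging 0.5 FPKM or more, with Benjamini-Hochberg adjustment over all of them and a threshold of 0.05. Fold changes on this scale understate those of low genes. The test was tried first on simulated data. Deviations from group means correlated at 0.568, 0.268 and 0.506 between same-numbered samples and between -0.497 and 0.036 otherwise, and on these values alone same-numbered samples were treated as pairs. Chi-square per degree of freedom between replicates was at least 44.9, so none was a library deposited again, and nothing in the labels says that they came from separate animals.

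The members, the gene lists and the 8 marker lists were chosen with earlier results of these data known. All 10 members are named. From each list, genes called with the block are named (at most 6 by p) or, if none, the 2 with the smallest p, except that 1 gene is not reported here. For the member with the smallest p, the 5 nearest genes are given. Mmp12 and Mmp8 were added after their values were seen. Python 3.11.15, pandas 2.3.3 and numpy 2.4.6 were used.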

Additional observations from a re-analysis of the deposited data

How the results depend on the processing

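Over 21 alternatives, no member passed (limma), except that 1, Mmp13, passed with the replicate block and without pair 1 (log2 fold change 0.62). In that fit 772 of the 13794 genes tested passed. The members tested were 9 in most alternatives, 8 with a mean of at least 1 FPKM, which drops Mmp9, and 10 without a filter. No member changed direction with another pseudocount, filter, scaling or trend, with voom on recovered reads, or with the block. When samples or pairs were left out, the log2 fold change of Mmp2 ran from -0.24 to 0.38, that of Mmp3 from -0.75 to 0.37, that of Mmp13 from -0.70 to 0.87, that of Mmp14 from -0.02 to 0.27 and that of Timp2 from -0.05 to 0.34, so each of these 5 changed sign in at least 1 such fit. Those of Mmp9 (0.31 without AdGFP 1 to 1.52 without AdGFP 3), Mmp10 (-1.34 to -0.55), Timp1 (0.15 without AdCre 1 to 0.60 without AdGFP 1) and Timp3 (0.20 without AdGFP 2 to 0.40) kept their sign.

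Over all genes, 1 passed without the block, 3 with a pseudocount of 1, 4 without a trend, and 0 without a filter or with voom (2168 and 1417 at an unadjusted p under 0.05), and from 0 to 2 when single samples were left out. With the replicate block 848 passed, 875 after rescaling to TPM, 17 without a filter and 0 without a trend (3122 at an unadjusted p under 0.05), and 772, 149 and 1 passed with the block without pairs 1, 2 and 3. Of the pathway genes, 0 passed without the block, 15 with it, 17 with it after rescaling to TPM (14 of the 15 and 3 others), 0 with it without a filter or without a trend, and 13 (9 of the 15 and 4 others), 2 and 0 with it without pairs 1, 2 and 3. The causes were not tested. Depth limits Timp4, with at most 7 reads in a sample, and Mmp9 and Mmp10, with at least 19 and 42.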
